A study of Mus musculus with 32 samples.

Results

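ATF4 is a transcription factor made when amino acids run short or the translation factor eIF2 is phosphorylated, and its target genes supply amino acids to the cell. The 37 genes described here were named as reported ATF4 targets and enzymes of serine, asparagine and proline synthesis. They were chosen by a list put together with the levels in both sets of mice and the bethanechol responses of each set already known, so that their values in those comparisons are a description. The count table lists 36 of them among 23517 genes, and Ddit3 was not analysed here.

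The data came from colonoids, organoids grown from crypts of the proximal colon, of 8 Lgr5-EGFP-IRES-CreERT2 mice, whose stem and progenitor cells carry EGFP under control of the Lgr5 gene. Colonoids of each mouse were left untreated or kept with 250 nM bethanechol (Bch), a muscarinic receptor agonist, for 4 days, and EGFP+ cells were sorted. The labels give 3000 sorted cells per mouse and treatment, except 13114 untreated and 3504 treated cells in mouse 1. Further exceptions were 2361 in untreated mouse 3 and 2401 in untreated mouse 9. Each mouse and treatment gave 2 technical replicate libraries, which were added, so that 16 sums entered the comparisons. The questions were whether levels of the genes differed between the sets of mice and whether Bch changed them in either set. Mice 1 to 4 are labelled male, with sorted Lgr5+ cells as the source and the RNeasy Plus Micro Kit. For mice 7 to 10 the labels give no sex, name colonic organoids as the source and the RNeasy Mini Kit, and the series' text counts 4 female and 4 male mice. Set, kit, labelled source and sex change together and cannot be told apart. Ages are not given in the labels, and both sets carry the same reporter allele, which is active in only some Lgr5 cells in this strain. As these are bulk libraries, fewer cells of a type and less RNA per cell cannot be told apart.

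When any of the eIF2 kinases phosphorylates eIF2, most translation slows while that of the Atf4 message increases. ATF4 then pairs with C/EBP family members and binds composite elements in front of genes for amino acid synthesis and uptake, tRNA charging and the later resolution of the stress. Growing epithelial cells of the crypt draw on serine for glycine and folate-bound carbon, on asparagine and proline for protein, and on cystine for glutathione.

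The C/EBP-ATF response element was searched for as TGATGNAA on both strands in RefSeq promoter windows of GRCm38.p6, from 250 bases before to 50 after the start of a gene. Windows were found for 32 of the 37 genes, and 10 of these (31.2%) held the element, against 1219 of 27025 genes with a window (4.51%). The windows without a match say only that these letters are not in them. The 11 matches are given here on the strand of the gene in stretches of 30 bases, with the element in capitals, to show how the letters and the place of the element vary among the genes. Atf5, which had the widest fitted difference of the 34 genes tested between the untreated sets, has 2 windows without a match.
Chac1, chr2:119351038-119351067, plus strand: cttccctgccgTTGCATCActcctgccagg
Trib3, chr2:152344028-152344057, minus strand: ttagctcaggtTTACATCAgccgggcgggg
Slc7a11, chr3:50443661-50443690, minus strand: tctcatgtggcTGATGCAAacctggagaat
Slc7a11, chr3:50443642-50443671, minus strand: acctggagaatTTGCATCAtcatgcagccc
Asns, chr6:7693214-7693243, minus strand: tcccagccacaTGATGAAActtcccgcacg
Nupr1, chr7:126625562-126625591, minus strand: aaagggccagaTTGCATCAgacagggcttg
Slc1a4, chr11:20332699-20332728, minus strand: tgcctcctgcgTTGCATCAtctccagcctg
Pycr1, chr11:120643833-120643862, minus strand: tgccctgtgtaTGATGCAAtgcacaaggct
Pck2, chr14:55540152-55540181, plus strand: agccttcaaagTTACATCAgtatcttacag
Vldlr, chr19:27216809-27216838, plus strand: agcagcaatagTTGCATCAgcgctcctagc
Got1, chr19:43524689-43524718, minus strand: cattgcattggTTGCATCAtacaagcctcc

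Read on its own strand the element was TGATGCAA in 8 of the matches, TGATGTAA in Trib3 and Pck2, and TGATGAAA in Asns. Slc7a11 held 2 copies, 66 and 47 bases upstream of the RefSeq start that its window uses. Counted from the same RefSeq starts, the match of Asns began 23 bases upstream and those of Pycr1 and Pck2 103 bases upstream, whereas that of Trib3 lay 15 bases into the transcript. The sides depend on the annotated start, as the GENCODE gene starts place the matches of Asns, Vldlr and, far from the start, Nupr1 inside the gene and that of Trib3 upstream of it. A match is a description of the sequence and not a measured site. Cth, Slc1a5, Aldh1l2, Eif4ebp1 and Slc7a5 had no window in the table used.

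The 32 libraries held 267146 to 2119938 counted molecules (UMIs), and the sums 557512, in untreated mouse 3, to 4050342, in Bch-treated mouse 8. A gene with 0 UMIs may still hold up to 0.741 CPM (UMIs scaled to the size of the library) in the deepest sum and 5.38 CPM in the shallowest, taking 3 UMIs as the limit and counting error only. Markers of crypt stem and progenitor cells were detected, with 11 of 12 present in all 16 sums, and their summed level was 1002 to 1155 CPM in untreated cells of mice 1 to 4 and 808 to 862 CPM in mice 7 to 10. The 7 of 14 immune, stromal and endothelial markers in the table summed to 1.21 to 11.5 CPM. Xist was listed at 11.9 to 24.2 CPM in mice 1 to 4 and 43.8 to 161 CPM in mice 7 to 10, and the Y-linked Eif2s3y, an eIF2 subunit, at 36.5 to 62.8 CPM and 2.57 to 8.62 CPM, so both were present in both sets. The Y-linked Ddx3y, Uty and Kdm5d had untreated means of 9.26, 5.33 and 8.25 CPM in mice 1 to 4. In mice 7 to 10 these were 1.49, 0.775 and 0.782 CPM. Between technical replicates, 101 of 8861 genes with at least 200 UMIs differed over 2-fold in share, and 0 of 35 such members did, with ratios of 0.790 to 0.978. The 101 include 37 of 83 ribosomal protein genes, 36 of them with the larger share in technical replicate 2, and others such as Gapdh, Ppia and predicted genes. Ribosomal protein genes made up 10.2 to 13.6% of the UMIs in technical replicate 1 and 17.0 to 21.6% in technical replicate 2, and whether both were counted in the same way is not given in the sources used here. With ribosomal protein and mitochondrial genes left out, 18 of 34 members tested differed between the sets in untreated and 16 of 36 in treated cells. These counts, at an edgeR adjusted p under 0.05, stand in place of 17 and 16. Of all genes, 175 of 8911 and 204 of 9576 differed.

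Most of the 36 genes had lower levels in mice 7 to 10 than in mice 1 to 4, with or without Bch. The median over the genes of the log2 level, taken relative to each gene's mean over the 16 sums, was 0.24 to 0.51 in the 8 sums of mice 1 to 4. It was -0.50 to -0.21 in the 8 sums of mice 7 to 10, so that the sets did not overlap. The same median over all genes lay between -0.02 and 0.03. Within a mouse, the untreated and treated medians differed by less than the gap between the sets, as the plot of medians by mouse shows.

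**Figure D1:**
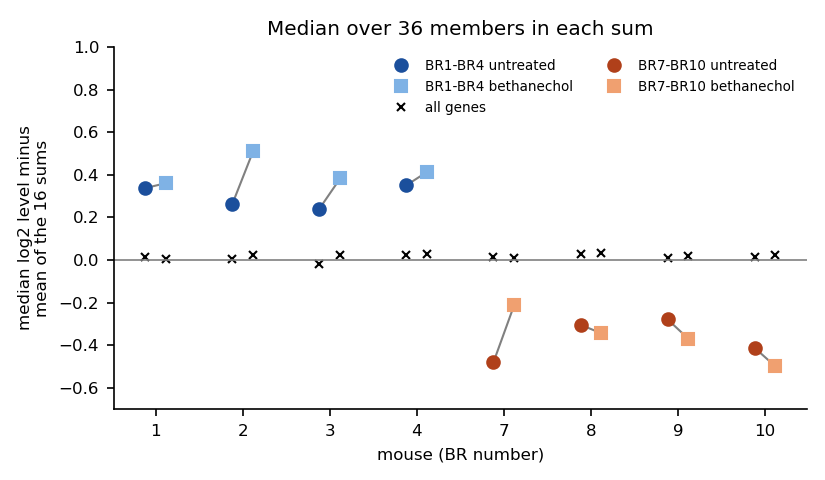
Median over 36 genes of the log2 level minus each gene's mean over 16 sums, by mouse on the horizontal axis, with circles for untreated and squares for Bch-treated cells, a line joining the sums of 1 mouse, and crosses for the median over all genes. The sums of mice 1 to 4 sit between 0.24 and 0.51 and those of mice 7 to 10 between -0.50 and -0.21, and the crosses stay near 0.

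In untreated cells, edgeR's quasi-likelihood test placed 150 of 9159 genes (1.64%) past a Benjamini-Hochberg adjusted p of 0.05, of which 61 (0.666%) were lower in mice 7 to 10. Of the 36 genes, 34 passed the filter on low counts, 17 were past the threshold and all 17 were lower in mice 7 to 10. The log2 fold change was below 0 for 34 of 34, against 52.1% of all genes, and the groups did not overlap for 18 of 34, lower in mice 7 to 10, against 3.43% of all genes. The median log2 fold change was -0.69, beside -0.02 over all genes. These counts come from the contrast that was known when the genes were chosen and nothing is read from them.

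In Bch-treated cells, 199 of 9639 genes (2.06%) passed, 80 of them (0.83%) lower in mice 7 to 10. All 36 genes could be fitted, 16 were past the threshold and these 16 were lower. Aldh1l2 and Slc6a9, both below 0, did not pass the filter in mice 7 to 10 alone. They were fitted here through their levels in mice 1 to 4, so their direction is not read. The log2 fold change was below 0 for 34 of 36, against 51.1% of all genes, and 21 of 36 did not overlap, against 3.91%. The median was -0.73, beside -0.01 over all genes. Of the genes past the threshold, 15 were shared, which is 15 of 17 in untreated and 15 of 16 in treated cells of the same mice. Cebpg and Aldh18a1 passed in untreated cells only and Slc7a5 in treated cells only, and whether these differ between the treatments is the interaction given further on.

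Among the transcription factors and regulators, 5 of 8 were past the threshold in untreated cells and 4 of 8 in treated cells. Of all genes, 1.64% and 2.06% were. The medians of this role were -0.59 and -0.52. Atf4 itself was at 251, 219.7, 197 and 284 CPM in untreated cells of mice 1, 2, 3 and 4, and at 144, 147, 176 and 154 CPM in mice 7, 8, 9 and 10. With Bch it was at 229.7, 302, 313 and 277 CPM and 195, 171, 153 and 172 CPM. Under both treatments the lowest sum of mice 1 to 4 was above the highest of mice 7 to 10. The log2 fold change was -0.64 (SE 0.13) in untreated and -0.71 (SE 0.13) in treated cells, a 1.56-fold and 1.63-fold lower level.

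Trib3, a pseudokinase that is induced by ATF4 and restrains it, held 81.2, 87.6, 61.1 and 100 CPM in untreated cells of mice 1 to 4, against 24.3, 36.9, 26.4 and 21.5 CPM in mice 7 to 10. With Bch the values were 72.2, 104, 115 and 101 CPM and 35.6, 20.6, 25.9 and 21 CPM. The lowest sum of mice 1 to 4 was above the highest sum of mice 7 to 10 under both treatments. The level was 3.16-fold lower in untreated cells of mice 7 to 10, with a log2 fold change of -1.66 (SE 0.20), and 4.01-fold lower with Bch, at -2.0 (SE 0.19). Atf5, a factor related to ATF4, was at 29.2, 47.1, 52.4 and 47.7 CPM in untreated mice 1 to 4 and 10.9, 11.5, 14.2 and 10.9 CPM in mice 7 to 10. Its log2 fold change of -1.87 (SE 0.25) was the most negative of the 34, and with Bch it was -1.80 (SE 0.26), where the treated sum of mouse 1, at 21.6 CPM, stood close to that of mouse 7, at 19.9 CPM.

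Eif4ebp1, which encodes an inhibitor of cap-dependent translation, had mean levels of 773 ± 97.4 CPM (SD, n = 4) in untreated mice 1 to 4 and 479 ± 71.8 CPM in mice 7 to 10, with log2 fold changes of -0.70 in untreated and -0.59 in treated cells. Cebpg, a C/EBP partner of ATF4, was at 106 to 115 CPM and 73.7 to 81 CPM in untreated cells, without overlap, and its call was lost under 10 of 15 alternatives. Cebpb, another C/EBP factor, had log2 fold changes of -0.25 (SE 0.14) and -0.45 (SE 0.13) and passed in neither. Nupr1, a small stress-induced chromatin protein, was at 561, 849.5, 637 and 546 CPM in untreated mice 1 to 4 and 413, 425, 680.4 and 405 CPM in mice 7 to 10, where mouse 9 stood above mice 1, 3 and 4 of the other set. With Bch its mean was not lower in mice 7 to 10, at 532 ± 36.7 CPM in mice 1 to 4 and 561 ± 175 CPM in mice 7 to 10. Ppp1r15a, which directs a phosphatase to eIF2, was at 11.1 ± 1.06 CPM and 9.29 ± 1.93 CPM in untreated cells, so the groups overlapped.

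The 3 enzymes that make serine were lower in mice 7 to 10. Phgdh, which catalyses the first step, was at 242, 218, 196 and 278 CPM in untreated mice 1 to 4 and at 138, 155, 112 and 157 CPM in mice 7 to 10. Psat1, the aminotransferase of the next step, was at 186, 136, 161 and 178 CPM and 87.7, 106, 87.7 and 118 CPM. Psph, the phosphatase that releases serine, was at 150, 111, 131 and 155 CPM and 73, 74.5, 96.3 and 80.4 CPM. For each the highest sum of mice 7 to 10 was below the lowest of mice 1 to 4. The log2 fold changes were -0.76 (SE 0.13) for Phgdh, -0.74 (SE 0.14) for Psat1 and -0.77 (SE 0.15) for Psph.

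With Bch, Phgdh was at 283, 321, 289 and 309 CPM in mice 1 to 4 and 146, 145, 150.3 and 123 CPM in mice 7 to 10, and the log2 fold change was -1.09 (SE 0.12). Psat1 was at 229, 225, 186 and 176 CPM and 101, 119, 91.2 and 95.2 CPM, a difference of -1.0 (SE 0.13). Psph was at 174, 188, 202 and 164 CPM and 99.4, 74.3, 84.5 and 69.9 CPM, a difference of -1.17 (SE 0.14). Whether the 3 differences change with treatment is the interaction given further on, in which none of these genes passed edgeR's adjusted threshold.

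Mitochondrial folate enzymes use serine as a source of 1-carbon units. Shmt2, which turns serine into glycine there, was at 331, 229, 201 and 258 CPM in untreated mice 1 to 4 and 145, 164, 163 and 169 CPM in mice 7 to 10, with a log2 fold change of -0.70 (SE 0.13). Mthfd2, which oxidises the folate-bound carbon next, was at 157, 157, 112 and 145 CPM and 66, 77, 76 and 78.9 CPM, a difference of -0.97 (SE 0.14). Neither gene overlapped between the sets. In treated cells the differences were -0.75 (SE 0.17) and -1.13 (SE 0.15). Mthfd1l, which releases formate, was at 16.1 ± 5.42 CPM and 14 ± 2.79 CPM in untreated cells and passed in neither treatment. Aldh1l2, which oxidises formyl-folate, held 124 UMIs over all 16 sums and did not pass the filter in untreated cells. In treated cells it had a log2 fold change of -1.47 (SE 0.47) that was not past the threshold. It passed the filter there through its level in mice 1 to 4, so this direction is not read.

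**Figure D2:**
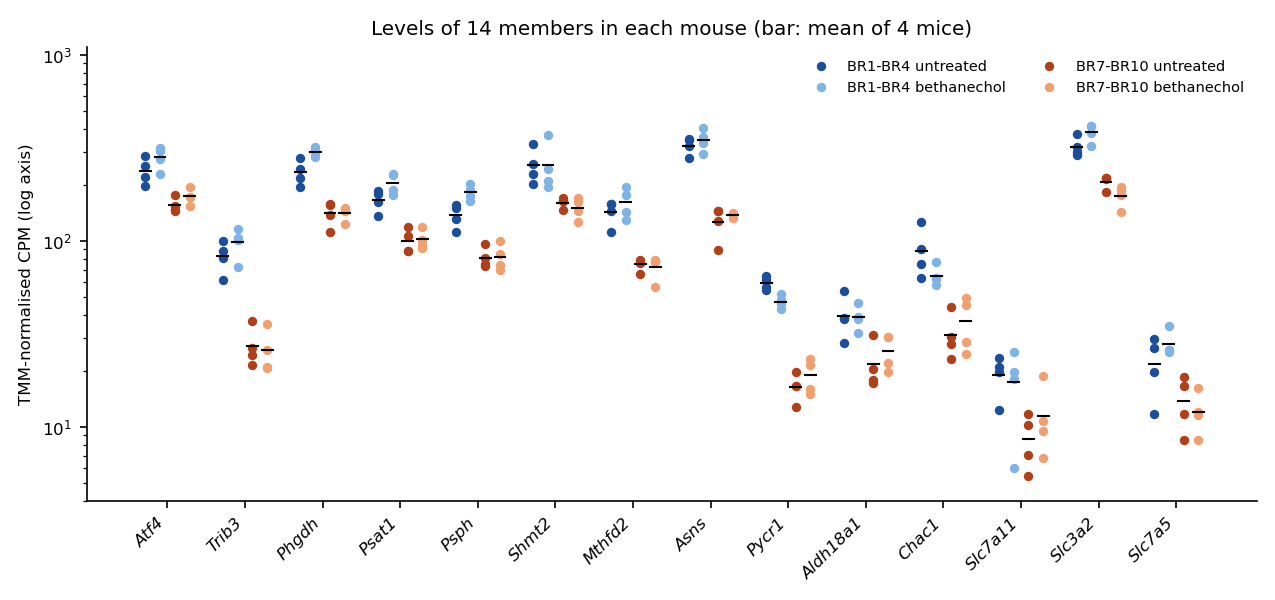
TMM-normalised CPM (vertical axis, log scale) of 14 genes in the 16 sums, with blue for mice 1 to 4 and red for mice 7 to 10, dark for untreated and light for Bch, and a bar at the mean of 4 mice. For Asns the untreated sums of mice 1 to 4 lie at 278 to 351 CPM and those of mice 7 to 10 at 89.0 to 144 CPM, whereas for Aldh18a1 the untreated sets overlap.

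Among the enzymes for asparagine, proline and other amino acids, 5 of 8 were past the threshold in untreated and 4 of 8 in treated cells. Of all genes, 1.64% and 2.06% were. The medians of this role were -0.88 and -1.08. Asns, asparagine synthetase, was at 348, 351, 278 and 323 CPM in untreated mice 1 to 4 and 89, 144, 128 and 144 CPM in mice 7 to 10. Treated cells held 405, 362, 334 and 292 CPM and 138, 133, 141 and 139 CPM. All 8 sums of mice 7 to 10 were below the 8 of mice 1 to 4. The log2 fold changes were -1.38 (SE 0.14) and -1.34 (SE 0.13), a 2.60-fold and 2.53-fold lower level.

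Pycr1, the mitochondrial enzyme of the last step to proline, was at 56.6, 64.7, 61.1 and 54.3 CPM in untreated mice 1 to 4 and 16.7, 12.7, 19.8 and 16.6 CPM in mice 7 to 10. In treated cells it stood at 42.7, 48, 51.5 and 45.5 CPM and 23, 15.9, 21.5 and 15 CPM. The sets were separate in both treatments, by 3.58-fold in untreated cells, a log2 fold change of -1.84 (SE 0.21), and by 2.57-fold with Bch, -1.36 (SE 0.20). Aldh18a1, which starts proline synthesis from glutamate, was at 53.4, 28.1, 38.4 and 38.1 CPM and 20.5, 31.2, 17.2 and 17.8 CPM in untreated cells, where mouse 8 was above mouse 2. Its difference of -0.92 (SE 0.24) was past the threshold in untreated cells, a call lost under 8 of 15 alternatives, and that of -0.62 (SE 0.20) in treated cells was not.

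Pck2, the mitochondrial phosphoenolpyruvate carboxykinase, was at 188, 169, 166 and 142 CPM in untreated mice 1 to 4 and 63.4, 82.8, 79.6 and 79.5 CPM in mice 7 to 10, with differences of -1.13 (SE 0.14) in untreated and -1.22 (SE 0.13) in treated cells. Cth, which makes cysteine from cystathionine, differed by -0.85 (SE 0.17) and -1.03 (SE 0.15), and its groups overlapped in neither treatment. Cbs, which forms cystathionine, was at 28.5 ± 1.34 CPM and 25.3 ± 3.36 CPM in untreated cells and differed by -0.19 (SE 0.22), within the spread of the mice. Got1, the cytosolic aspartate aminotransferase, had log2 fold changes of -0.44 and 0.04, and Gpt2, the mitochondrial alanine aminotransferase, of -0.56 and -1.13, with 252 UMIs in all. Neither passed in either treatment.

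The transporters differed among themselves, with 1 of 7 past the threshold in untreated cells and 2 of 8 in treated cells. Of all genes, 1.64% and 2.06% were. Slc3a2, the heavy chain that carries several amino acid exchangers to the membrane, was at 298, 320.5, 289.8 and 375 CPM in untreated mice 1 to 4 and 184, 217, 214 and 216 CPM in mice 7 to 10. With Bch it was at 324, 413, 415 and 379 CPM and 143, 184, 195 and 177 CPM. The sets did not overlap, and the log2 fold change was -0.65 (SE 0.12) in untreated and -1.12 (SE 0.13) in treated cells. Slc7a5, a light chain that brings in leucine and other large amino acids, was at 19.6, 11.8, 29.7 and 26.4 CPM and 18.6, 16.6, 11.7 and 8.46 CPM in untreated cells, where the sets overlapped, and at 25.9, 25.3, 35 and 25.7 CPM and 11.5, 16.2, 8.5 and 12 CPM with Bch, where they did not. The differences were -0.67 (SE 0.31) and -1.17 (SE 0.24), and the second was past the threshold.

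Slc7a11, the light chain that exchanges glutamate for cystine, was at 12.3, 19.6, 20.9 and 23.4 CPM in untreated mice 1 to 4 and 7.05, 10.2, 11.7 and 5.44 CPM in mice 7 to 10. The Bch-treated values were 6.01, 25.3, 18 and 19.8 CPM and 18.8, 6.8, 10.7 and 9.43 CPM. The untreated sets did not overlap, but mouse 1 was the lowest treated sum of all 8. The differences of -1.17 (SE 0.32) and -0.77 (SE 0.35) were not past the threshold. Slc7a1, which carries arginine and lysine, was at 27.8, 26.8, 50.6 and 26.4 CPM and 8.33, 22.9, 20.8 and 16 CPM in untreated cells, without overlap and not past the threshold, with a difference of -0.87 (SE 0.28). Slc1a5, a glutamine carrier, was at 89.8, 63.4, 87.3 and 75.7 CPM and 74.3, 61.1, 104 and 73.8 CPM in untreated cells, a difference of -0.02 (SE 0.17) with wide overlap. With Bch it was at 83.6 to 106 CPM and 60.7 to 76.9 CPM, without overlap and not past the threshold. Leaving out each mouse in turn gave treated differences of -0.56 to -0.43. Slc1a4, a carrier of alanine, serine and cysteine, differed by -0.71 and -0.53 in the 2 treatments, and Slc38a2, a sodium-coupled carrier of small neutral amino acids, by -0.17 and -0.07. The glycine carrier Slc6a9 held 200 UMIs in all and was at 8.67, 11.8, 5.24 and 13.7 CPM and 4.48, 1.27, 2.03 and 3.02 CPM in untreated cells, in which it did not pass the filter.

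Of the other stress-induced targets, Chac1, which breaks down glutathione, was at 90.3, 75.2, 126 and 63 CPM in untreated mice 1 to 4 and 23.1, 43.9, 27.9 and 30.2 CPM in mice 7 to 10. Under Bch it was at 76.4, 57.5, 62 and 62.9 CPM and 49.2, 28.6, 24.6 and 45 CPM. The sets stayed apart, by 2.77-fold in untreated cells, a log2 fold change of -1.47 (SE 0.21), and by 1.81-fold with Bch, -0.86 (SE 0.19). Xpot, which exports tRNA from the nucleus, had differences of -0.60 and -0.80, the mTORC1 regulator Sesn2 of -0.47 and -0.69, and the secreted glycoprotein Stc2 of -0.46 and -0.29. The lipoprotein receptor Vldlr had -0.04 and -0.54. None of these 4 passed the threshold, and Sesn2 held 223 and Vldlr 246 UMIs over the 16 sums.

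Other genes of the pathway were read from lists of related genes. The aminoacyl-tRNA synthetases that charge cytosolic tRNA include many reported ATF4 targets. Of these synthetases, 8 of 20 were past the threshold in untreated cells and 6 of 20 in treated cells, all lower in mice 7 to 10. Of all genes, 0.666% and 0.83% were past it and lower. The log2 fold change was below 0 for 19 of 20 and 18 of 20, against 52.1% and 51.1% of all genes. The medians of the list were -0.58 and -0.44. Nars, the asparaginyl-tRNA synthetase, was at 436 ± 70 CPM (SD, n = 4) in untreated mice 1 to 4 and 233 ± 19.9 CPM in mice 7 to 10, a log2 fold change of -0.92 (SE 0.12, edgeR's Benjamini-Hochberg adjusted p = 2.46e-05). Rars, the arginyl-tRNA synthetase, was at 201 ± 14.1 CPM and 116 ± 15.2 CPM, a difference of -0.80 (SE 0.13, adjusted p = 0.00041), and at 214 ± 20.4 CPM and 113 ± 2.76 CPM with Bch, -0.92 (SE 0.12, adjusted p = 8.86e-06).

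The list of eIF2 kinases, eIF2 and eIF2B subunits and their regulators, which act ahead of ATF4, had 0 of 15 genes past edgeR's threshold in either treatment, with 1 at an unadjusted p under 0.05 in each, where 12.7% of all genes in untreated and 13.4% in treated cells reached that level. The medians of the list were 0.00 and -0.10. The list holds the X-linked Eif2s3x and leaves out its Y-linked copy Eif2s3y, which passed the threshold, lower in mice 7 to 10 by a log2 fold change of -2.76 (SE 0.27) in untreated and -3.73 (SE 0.27) in treated cells. Further reported ATF4 targets had 1 of 34 past it in untreated cells, Jdp2, a repressor of the AP-1 family, at 18.3 ± 2.44 CPM (SD, n = 4) in mice 1 to 4 and 6.77 ± 2.99 CPM in mice 7 to 10, a log2 fold change of -1.40 (SE 0.33, edgeR's adjusted p = 0.0224). In treated cells Jdp2 and Gdf15, a secreted stress hormone, passed, at -1.22 (SE 0.28) and -0.72 (SE 0.17). At an unadjusted p under 0.05, 11 of 34 were lower and 1 was higher in untreated cells and 7 were lower and 1 was higher in treated cells, where 6.05% and 5.89% of all genes were lower at that level. The log2 fold change was below 0 for 24 and 18 of the 34, and the medians of this list were -0.14 and -0.10. Other folate, glycine and proline enzymes had 0 of 21 past edgeR's threshold in untreated cells, with 1 at an unadjusted p under 0.05 beside the 12.7% of all genes, and a median of -0.07. In treated cells Glul, glutamine synthetase, was 1 of 22 and was higher in mice 7 to 10, at 0.61 (SE 0.16).

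**Figure D3:**
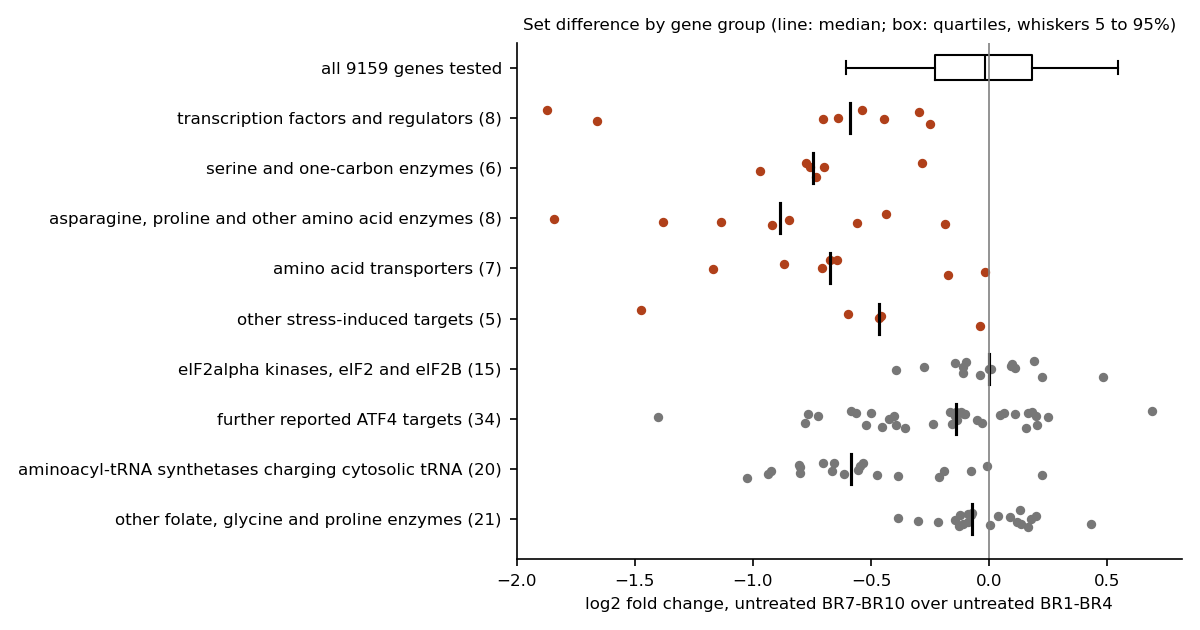
Log2 fold change of untreated mice 7 to 10 over untreated mice 1 to 4 (horizontal axis), 1 point a gene, for the 5 roles (red) and 4 lists of related genes (grey) with the number tested, a line at each median, and a box with quartiles and 5 to 95% whiskers for all 9159 genes tested. The medians of the roles lie between -0.88 and -0.47 and that of the tRNA synthetases at -0.58, whereas the eIF2 list, drawn without Eif2s3y, has a median of 0.00.

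Some markers of other cell states also differed between the same sets. Over all genes, 1.64% were past edgeR's threshold in untreated and 2.06% in treated cells, and 52.1% and 51.1% were below 0. The log2 fold change was above 0 for 8 of 8 colonocyte markers tested in untreated cells, 2 past edgeR's threshold, and their summed level was 647 to 1169 CPM in untreated mice 1 to 4 and 749 to 1457 CPM in mice 7 to 10. Of 10 stem and progenitor markers tested, 9 were below 0 and 2 were past the threshold, Ascl2 at -0.51 (SE 0.13) and Axin2 at -0.84 (SE 0.22), both lower in mice 7 to 10. Lgr5, whose reporter was sorted, was at 28.9 to 38.6 CPM and 12.4 to 26.3 CPM, not past the threshold. In the same untreated cells, goblet cell markers (8 of 10 above 0, 0 past the threshold) summed to 4483 to 6852 CPM and 3511 to 9117 CPM, enteroendocrine markers to 307 to 499 CPM and 521 to 1080.5 CPM, tuft cell markers to 11.9 to 24.9 CPM and 13.3 to 18.5 CPM, cycling markers to 1040.0 to 1337 CPM and 1073 to 1426 CPM, and dissociation response genes to 1136 to 1447 CPM and 1065 to 1744 CPM. At an unadjusted p under 0.05, which 12.7% of all untreated genes reached, 3 of 10 goblet cell markers were higher in mice 7 to 10 and 1 was lower. Of 9 enteroendocrine markers 7 were above 0 and 3 reached that level, all higher, and of 10 cycling markers 1 was higher and 1 lower. In treated cells, goblet cell markers were above 0 for 10 of 10, with 3 past edgeR's threshold and higher in mice 7 to 10, among them Muc2 at 0.85 (SE 0.16) and Clca1 at 1.76 (SE 0.38), and they summed to 3869 to 5353 CPM and 5253 to 14131 CPM. Colonocyte markers were above 0 for 7 of 8, with 3 past the threshold, among them Muc3 at 2.14 (SE 0.34) and Krt20 at 1.56 (SE 0.32), and summed to 492 to 1242 CPM and 1043 to 1294 CPM. Of 11 stem and progenitor markers, 9 were below 0 and Ascl2 and Sox9 passed, at -0.92 (SE 0.13) and -0.57 (SE 0.14), and the list summed to 960 to 1147 CPM and 720 to 917 CPM. Lgr5 was at 15.9 to 29.2 CPM and 19.7 to 30.7 CPM in these treated cells. Of 13 dissociation response genes, Fos passed and was higher in mice 7 to 10, at 0.69 (SE 0.15), with sums of 1083 to 1214 CPM and 1100 to 1501 CPM. Enteroendocrine markers summed to 317 to 584 CPM and 470 to 1164 CPM, tuft cell markers to 4.81 to 17.8 CPM and 6.26 to 19.9 CPM, and cycling markers to 940 to 1344 CPM and 1054 to 1280 CPM. Of the 8 enteroendocrine and 10 cycling markers tested 0 passed, with 0 and 1 at an unadjusted p under 0.05 beside the 13.4% of all treated genes, and no tuft cell marker passed the filter. No marker in the table was at 0 in all 16 sums. The part of these shifts in the levels of the ATF4 targets was not tested.

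In cells of mice 1 to 4, Bch was followed by small differences in both directions, and 0 of 36 genes were past the adjusted threshold, against 2 of 9509 genes (0.021%). With DESeq2, 15 of all genes and 0 of the 36 passed. Without the filter on low counts 88 of all genes and 2 of the 36, Phgdh and Psph, passed. At an unadjusted p under 0.05 there were 8 of 36, 5 higher and 3 lower, against 734 of all genes (7.72%), 4.46% higher and 3.26% lower. Levels were higher in 4 of 4 mice for 6 genes, against 8.22% of all genes, and lower in 4 of 4 for 4 genes, against 6.85%. The median log2 change was 0.09, beside 0.00 over all genes, and 0.22 over the 30 of the genes that could be tested with counts thinned to the smallest sum.

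Of the 7 serine and one-carbon enzymes 0 passed the adjusted threshold, and Phgdh, Psph and Psat1 were higher at an unadjusted p under 0.05. The log2 ratio of treated over untreated cells was 0.22, 0.56, 0.56 and 0.15 for Phgdh in mice 1, 2, 3 and 4, 0.22, 0.75, 0.62 and 0.08 for Psph and 0.30, 0.72, 0.21 and -0.02 for Psat1. Phgdh and Psph were thus higher in all 4 mice and Psat1 in 3. The other 4 were Shmt2 at -0.03 (SE 0.10), Mthfd2 at 0.16 (SE 0.11), Mthfd1l at 0.19 (SE 0.26) and Aldh1l2 at 0.43 (SE 0.44). The fitted changes of the first 3 were 0.36 (SE 0.10), 0.40 (SE 0.11) and 0.31 (SE 0.11), that is 1.28-fold, 1.32-fold and 1.24-fold. Slc3a2 had ratios of 0.12, 0.37, 0.52 and 0.02 and a change of 0.24 (SE 0.10), and Slc1a5 ratios of 0.18, 0.74, 0.04 and 0.14 and a change of 0.29 (SE 0.13). Cth and Pck2 were also higher in 4 of 4 mice, by 0.22 and 0.10.

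On the lower side, Nupr1 had ratios of -0.15, -0.63, -0.15 and -0.14 in mice 1, 2, 3 and 4, a change of -0.27 (SE 0.10). Chac1 had ratios of -0.24, -0.38, -1.01 and -0.00, a change of -0.39 (SE 0.15), where mouse 4 was near 0 and mouse 3 was the lowest. Pycr1 had ratios of -0.40, -0.42, -0.24 and -0.25, a change of -0.34 (SE 0.15). Cebpg was lower in 4 of 4 mice as well, by -0.13, and Slc7a1 had ratios of -1.02, 0.38, -1.05 and -0.21. Atf4 had ratios of -0.13, 0.46, 0.67 and -0.04, higher in 2 of 4 mice, and Asns of 0.22, 0.05, 0.27 and -0.15, so neither moved in 1 direction. The untreated sum of mouse 3, which the ratios of that mouse rest on, was the shallowest of the 16.

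In cells of mice 7 to 10, 0 of 9515 genes were past edgeR's adjusted threshold (0%), 360 had an unadjusted p under 0.05 (3.78%), and DESeq2 called 0. Of the 34 genes that passed the filter, 0 were past the threshold and 1, Got1, had an unadjusted p under 0.05. The changes were above 0 for 18 and below 0 for 16, where 50.5% of all genes were below 0, and the median was 0.00, as over all genes. Got1 had ratios of -0.10, 0.43, 1.19 and 0.14 in mice 7, 8, 9 and 10, a change of 0.45 (SE 0.22), where mouse 9 was the highest. Of the 34, Slc3a2 was the 1 gene lower in 4 of 4 mice, against 5.59% of all genes, with ratios of -0.36, -0.24, -0.13 and -0.29 and a change of -0.25 (SE 0.13).

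Phgdh had ratios of 0.09, -0.10, 0.43 and -0.35 in these mice, Psat1 of 0.21, 0.16, 0.06 and -0.31 and Psph of 0.44, -0.00, -0.19 and -0.20, each with mice on both sides of 0. Their changes were 0.01 (SE 0.14), 0.02 (SE 0.15) and -0.00 (SE 0.16). Mouse 7 had the highest ratio in several genes, at 0.94 for Nupr1, 1.06 for Chac1, 1.30 for Slc7a11 and 0.63 for Asns. Mouse 10 was also above 0 for Nupr1 (0.54), Chac1 (0.56) and Slc7a11 (0.70), but not for Asns (-0.05). The median over 36 genes was 0.29 in mouse 7, whereas it was -0.04, -0.01 and -0.04 in mice 8, 9 and 10. In mice 1, 2, 3 and 4 this median was -0.01, 0.22, 0.07 and 0.03. Without mouse 7 the fitted median over the genes in mice 7 to 10 was -0.04.

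**Figure D4:**
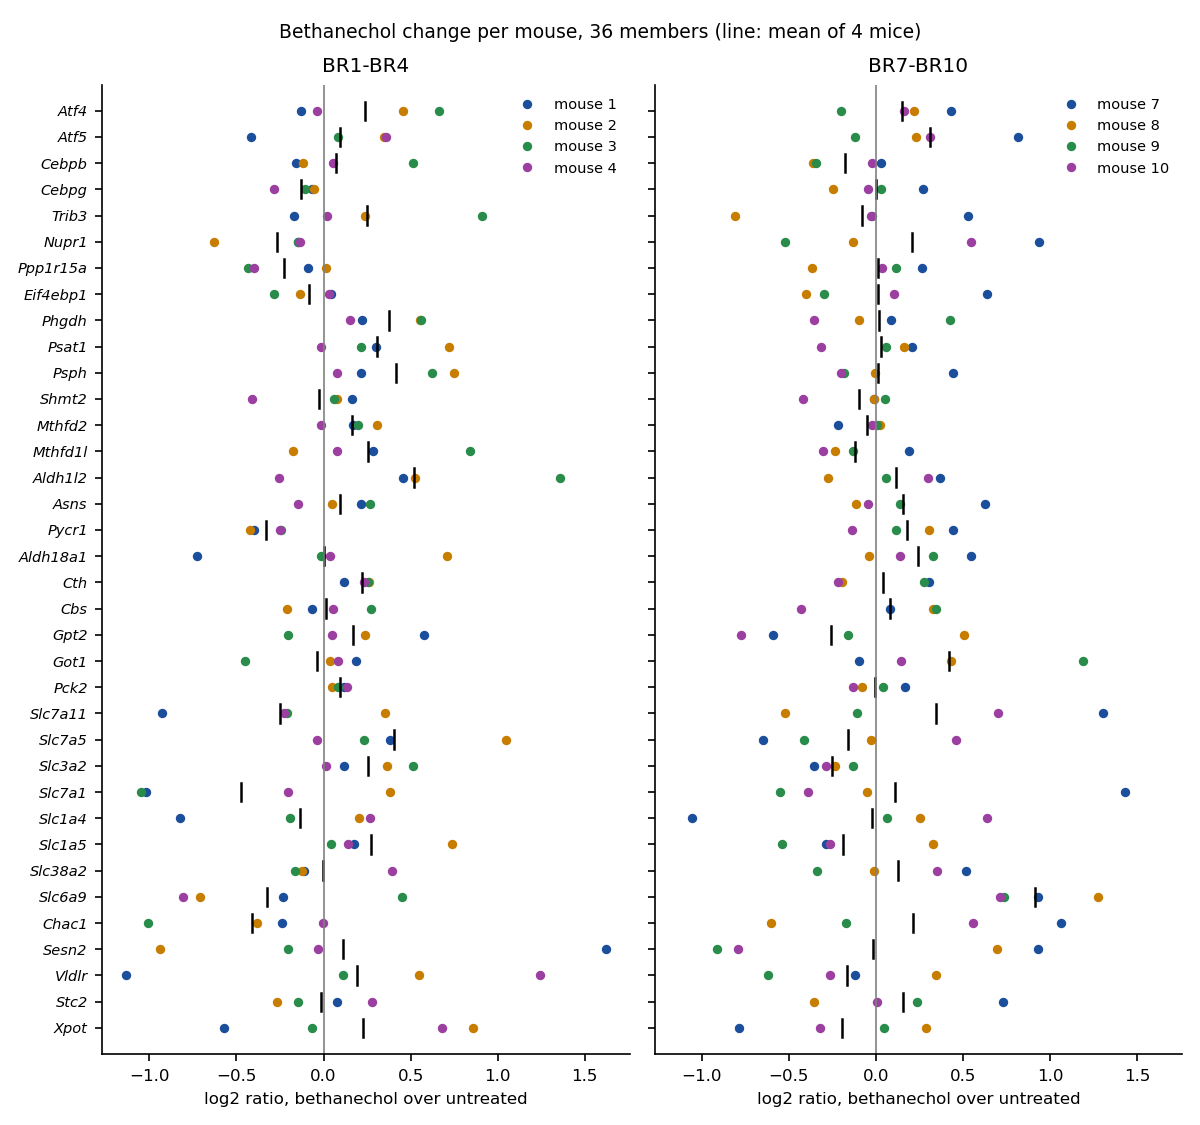
Log2 ratio of Bch-treated over untreated cells (horizontal axis) in each mouse for 36 genes, with mice 1 to 4 at the left, mice 7 to 10 at the right, 1 colour a mouse, and a line at the mean of 4 mice. Phgdh and Psph lie right of 0 in all of mice 1 to 4 and on both sides of 0 in mice 7 to 10, and most genes have mice on both sides.

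The difference between the sets in the response to Bch was fitted over all 16 sums with the mouse as a block, and 0 of 10280 genes (0%) passed edgeR's adjusted threshold, with 451 (4.39%) at an unadjusted p under 0.05, 2.41% higher and 1.97% lower, and 0 by DESeq2. Of the 36 genes, 0 passed and 5 had an unadjusted p under 0.05. Of these, 4 genes, Slc3a2, Slc1a5, Psph and Phgdh, had a lower change in mice 7 to 10, by -0.50 (SE 0.16), -0.48 (SE 0.21), -0.41 (SE 0.19) and -0.36 (SE 0.18) on the log2 scale. The fifth, Slc6a9, was at 1.58 (SE 0.59), but it did not pass the filter in mice 7 to 10, whose 4 untreated sums held 23 UMIs of it (1.27 to 4.48 CPM), and it was fitted here through the higher levels of mice 1 to 4. It had ratios of -0.24, -0.71, 0.45 and -0.81 in mice 1 to 4 and 0.93, 1.27, 0.74 and 0.71 in mice 7 to 10. On the higher side followed Chac1 at 0.57 (SE 0.28), Nupr1 at 0.47 (SE 0.24) and Pycr1 at 0.50 (SE 0.28). The 6 serine and one-carbon enzymes that passed the filter in both sets were below 0, as were 50.2% of all genes. Aldh1l2, also below 0, did not pass it in mice 7 to 10, where the untreated and treated sums held 18 and 21 UMIs of it. The median over the 36 genes was -0.07. Aldh18a1, Cebpg and Slc7a5, which passed between the sets under 1 treatment only, had interactions of 0.23 (SE 0.30), 0.12 (SE 0.19) and -0.52 (SE 0.37).

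Among the lists of related genes, 0 passed in either Bch comparison or in the interaction. At an unadjusted p under 0.05 the tRNA synthetases had 0 of 20 in mice 7 to 10 and 1 of 20 in mice 1 to 4, and the further ATF4 targets 4 of 35, all higher, and 2 of 34, both lower. The eIF2 list had 1 of 15 and 0 of 15, and the folate, glycine and proline enzymes 0 of 23 and 0 of 20. Of all genes, 3.78% in mice 7 to 10 (2.48% higher) and 7.72% in mice 1 to 4 (3.26% lower) reached that level. In the interaction, 2 of 20 tRNA synthetases, 1 of 35 further targets and 0 of 16 eIF2 and 0 of 25 folate, glycine and proline genes reached that level. Of all genes, 4.39% did. With DESeq2 the whole table gave 0 genes in mice 7 to 10 and 15 in mice 1 to 4.

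Members with and without the response element in the promoter window were set side by side. In untreated cells the 10 with it had a median difference between the sets of -1.15, from -1.84 to -0.04, and 5 were past the threshold. The 20 tested without it had a median of -0.62, from -1.87 to -0.17, and 10 were past the threshold. In treated cells the medians were -0.82 and -0.69, with 5 of 10 and 8 of 21 past the threshold. Trib3, Asns, Pycr1, Pck2 and Chac1 passed with the element, while Vldlr and Got1 held it and differed by -0.04 and -0.44 in untreated cells. The ranges overlap.

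The counts of genes past the threshold between the sets were smaller with thinned counts. Technical replicate 1 alone gave 18 of 30 members in untreated and 17 of 31 in treated cells, and technical replicate 2 alone 15 of 31 and 17 of 32. Of all genes, these were 126 of 7098 and 156 of 7521, and 119 of 7009 and 168 of 7449. When each sum was thinned to 557512 UMIs, 6 of 26 members were past the threshold in untreated and 5 of 29 in treated cells. Of all genes, 23 of 5757 and 19 of 5779 were. The medians over the members were -0.79 and -0.91, beside -0.01 and -0.01 over all genes. Below 0 were 25 of 26 and 28 of 29 members. Leaving out each mouse in turn gave 15 to 17 and 15 to 20 genes. Cebpg was lost without each of mice 1, 2, 3, 4, 7, 8 and 9, and Aldh18a1 without each of mice 1, 3, 4, 7, 9 and 10. Both were also lost with technical replicate 2 alone and with thinned counts, and Cebpg without the filter on low counts. In treated cells Slc7a5 was lost without mouse 3, Shmt2 without mouse 7 or 10, and Eif4ebp1 and Chac1 without mouse 8.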

How the data were processed

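The authors tagged each cDNA with a unique molecular identifier (UMI), mapped reads to GRCm38 (GENCODE M25 annotation), and deposited raw UMI counts for each gene in each library, made with the Drop-seq pipeline. The submitters' processing notes list GRCh38 for all 32 libraries. Use of strand and the treatment of reads that match several genes are not given in the sources used here. Blank cells of technical replicate 2 (1520 genes, 0 of the members) were read as 0, and 0 sample columns were left unmapped.

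Both technical replicates of each treated or untreated culture were added, giving 16 sums of 557512 to 4050342 UMIs. Tests used R 4.3.3 with edgeR 4.0.16 (limma 3.58.1): filterByExpr, TMM, robust quasi-likelihood fits, and Benjamini-Hochberg adjustment over all genes tested at 0.05. Bch was fitted within each set with the mouse as a block, the sets were compared within each treatment without a block, and the interaction was fitted over all 16 sums. DESeq2 1.42.0 was an alternative. Levels are CPM from counts and TMM-scaled library sizes. A prior count of 2 entered the log2 ratios, and a standard error is the ratio of the fitted change to the root of the F statistic. Steps were tested on simulated data. P-values measure the spread between 4 mice a group.

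The pairing comes from the labels, which give both treatments of a mouse the same number. Across genes, the paired sums deviated from their group means with correlations of 0.244, 0.0331, 0.0615 and 0.0837 in mice 1, 2, 3 and 4 and of 0.0710, 0.151, 0.00310 and -0.0203 in mice 7, 8, 9 and 10.

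The members, the lists of related genes and the markers were chosen with earlier results of these data known. Values in every sum were given for genes picked by role (15, of which Ddit3 was not analysed here) and for up to 4 genes per direction and comparison with the smallest p, and related lists by counts with up to 2 genes per list and direction. Further alternatives were DESeq2's size factors, no filter, each technical replicate alone, thinned counts, no mitochondrial and ribosomal protein genes, and each mouse left out.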

Additional observations from a re-analysis of the deposited data

Results flagged for a closer look

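In groups of 4 mice, 216 sets of levels or log2 ratios of the 36 genes were examined for a mouse that stood far from the other 3, and 14 (6.48%) had one, where chance gives about 1 in 20. Mouse 7 was the lone sum in 4 of them. In untreated cells of mice 7 to 10 it was lowest for Pck2, at 63.4 CPM beside 79.5 to 82.8 CPM in the others, and for Slc3a2, at 184 CPM beside 214 to 217 CPM. With Bch it was lowest for Mthfd2, at 56.5 CPM beside 76.5 to 78.3 CPM, and highest for Atf5, at 19.9 CPM beside 13.0 to 13.7 CPM.

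Mouse 9 was highest among untreated cells of mice 7 to 10 for Cebpb, at 189 CPM beside 153 to 156 CPM, and for Nupr1, at 680.4 CPM beside 405 to 425 CPM. Xpot was highest there in mouse 8, at 16.6 CPM beside 11.5 to 11.7 CPM. In Bch-treated cells of mice 1 to 4, mouse 1 was lowest for Atf5, at 21.6 CPM beside 55.5 to 61.4 CPM, and highest for Stc2, at 203 CPM beside 91.5 to 104 CPM, and mouse 3 was highest for Slc7a5, at 35 CPM beside 25.3 to 25.9 CPM. Slc7a1 was highest in untreated mouse 3, the shallowest sum, at 50.6 CPM beside 26.4 to 27.8 CPM.

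The remaining 3 were log2 ratios of treated over untreated cells. Nupr1 stood at -0.63 in mouse 2 beside -0.15 to -0.14 in mice 1, 3 and 4, Slc38a2 at 0.39 in mouse 4 beside -0.17 to -0.11, and Shmt2 at -0.42 in mouse 10 beside -0.01 to 0.05 in mice 7, 8 and 9. What lies behind any of these sums was not tested.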

How the results depend on the processing

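With the replicate block of the mouse left out, the Bch comparison in mice 1 to 4 called 0 genes of the whole table in place of 2, with 478 in place of 734 at an unadjusted p under 0.05. In mice 7 to 10 and in the interaction the calls stayed at 0, with 309 in place of 360 and 353 in place of 451 at that level. For Bch in mice 1 to 4, DESeq2 called 15 genes, technical replicate 1 alone 9, thinned counts 0, and no filter 88, of which 2, Phgdh and Psph, were among the 36 genes. Without a filter the comparisons of the sets called 234 genes in untreated and 324 in treated cells in place of 150 and 199, and the interaction 1 in place of 0. Thinning to the smallest sum gave 23 of 5757 and 19 of 5779 genes. Of the 36 genes, 6 and 5 were past the threshold in place of 17 and 16. The median over these genes was -0.91 in treated cells, and their median Bch change was 0.22 in mice 1 to 4. Thinning leaves fewer UMIs and fewer genes tested.

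Leaving out each mouse in turn gave 0 to 19 genes for Bch in mice 1 to 4 (19 without mouse 4, 5 without mouse 3, 0 without mouse 1 or 2) and 0 to 4 in mice 7 to 10 (3, 4 and 1 without mice 8, 9 and 10). It gave 74 to 210 for the sets in untreated cells, with 74, 97, 80, 93, 97 and 92 without mice 2, 3, 4, 7, 8 and 9, and 92 to 469 in treated cells (469 without mouse 1 and 99, 92, 94 and 102 without mice 2, 3, 4 and 10). The cause of these shifts was not tested. Of the 36 genes, 15 to 17 and 15 to 20 were past the threshold between the sets, with medians of -0.75 to -0.67 and -0.78 to -0.66, and 0 in the Bch comparisons and the interaction, with medians of 0.06 to 0.10, -0.04 to 0.05 and -0.14 to 0.02. No gene past the threshold between the sets changed direction under any alternative. In the shallowest sum, 3 UMIs are 5.38 CPM, which limits Aldh1l2, Slc6a9, Vldlr and Sesn2.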
